A study of Rattus norvegicus with 9 samples.

Results

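The genes described here carry out the interferon response and the presentation of peptides on class I molecules, and their transcripts were measured in rat pancreatic islets under 2 diets. The list held 35 interferon-induced genes, immunoproteasome subunits, peptide loading genes, receptors and transcription factors, chosen by name, and 33 of them were measured among the 14217 genes on the array. Ddx58 and Gbp5 were not matched to a probe set of a single gene and have no value here. The 33 members were split by role into 15 targets of type I interferon, 12 targets of interferon gamma and 6 receptors and transcription factors.

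RNA came from islets of Wistar rats, freed with collagenase after the animals were killed, and each sample was hybridised to 1 Affymetrix Rat Genome 230 2.0 array. The lean group had 4 samples from rats on standard chow, and the obese group had 5 samples from rats on an energy-rich cafeteria diet for 30 days. Each sample is titled as a rat. The sources used here do not say whether animals were pooled, nor their age or sex, so a p-value refers to the spread among samples, which may be partly technical. All values are log2 expression values (RMA), and every difference is the cafeteria mean minus the lean mean on that scale. The endocrine identity of the samples showed in every array, with Ins2 between 14.13 and 14.24 and Gcg between 13.44 and 13.77.

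Interferons are secreted proteins that warn cells of infection. Type I interferons bind a receptor that includes Ifnar1 and act through a complex that holds Stat2 and Irf9 and binds the interferon-stimulated response element (ISRE) of genes for antiviral proteins. Interferon gamma, made mainly by T and natural killer cells, binds a receptor that includes Ifngr1 and acts on gamma-activated sites (GAS). Among its targets are the transcription factor Irf1, the immunoproteasome that cuts proteins into peptides, and the Tap1 and Tap2 transporter that brings these peptides to class I molecules, whose light chain is B2m. In islets this pathway is known from autoimmune diabetes, in which beta cells display class I molecules at high levels.

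The promoters of these genes are shown first, and they were searched for the letters of the elements through which interferons act. The members were split by role, not by these letters. RefSeq promoter windows (GRCr8, from 250 bases before to 50 after the start of transcription) were found for 28 of the 33 members, not for Mx2, Ifit2, Isg15, Usp18 and Irf2. The ISRE was searched as GAAA and GAAA with NN between them, and the GAS as TTCNNNGAA, on both strands, and matches may overlap one another. ISRE letters stood in 9 of 11 type I targets (81.8%), in 8 of 12 gamma targets (66.7%) and in 0 of 5 receptors and factors, against 3.92% of all 33469 windows in the table. GAS letters stood in 3 of 11 type I targets, 3 of 12 gamma targets and 1 of 5 receptors and factors, against 8.87% of all windows. The windows of Mx1, Oasl, Psmb9, Psme1, Ifngr1, Ifnar1, Irf3 and Stat2 held neither. A match is a description of the letters and does not show that a factor binds there.

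Stretches of 10 promoters are printed 5′ to 3′ on the strand of the gene, and capitals mark the letters of the element named in brackets. The Ifitm3 stretch also holds a GAS match, at -33 to -25, left in lower case. The first 6 belong to gamma targets and the last 4 to type I targets. Psmb8 carries its ISRE letters across the start of transcription, Gbp2 and Tap1 carry 1 match each, and Psmb10 carries 2. Irf1 and Irf8 had no ISRE letters in their windows but GAS letters, 1 match in Irf1 and 2 in Irf8. In Oas1a 2 ISRE matches overlap, and in Ifi27 2 stand apart.
Psmb8 (ISRE, chr20:4657026-4657055, minus strand): cctcctcttggtgctgtggcTTTCGCTTTC
Gbp2 (ISRE, chr2:234005647-234005726, plus strand): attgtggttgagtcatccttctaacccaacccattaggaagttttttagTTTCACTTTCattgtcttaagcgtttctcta
Tap1 (ISRE, chr20:4668624-4668703, minus strand): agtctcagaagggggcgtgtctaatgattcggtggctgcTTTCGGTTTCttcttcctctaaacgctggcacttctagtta
Psmb10 (ISRE, chr19:50743293-50743392, minus strand): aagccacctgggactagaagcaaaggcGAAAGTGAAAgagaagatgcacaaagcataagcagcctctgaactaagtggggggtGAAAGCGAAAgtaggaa
Irf1 (GAS, chr10:38417755-38417834, plus strand): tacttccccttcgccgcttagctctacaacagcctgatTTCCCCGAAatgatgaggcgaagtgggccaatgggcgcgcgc
Irf8 (GAS, chr19:65699074-65699153, plus strand): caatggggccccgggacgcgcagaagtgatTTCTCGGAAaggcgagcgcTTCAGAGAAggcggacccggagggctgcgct
Ifi27 (ISRE, chr6:128355122-128355251, plus strand): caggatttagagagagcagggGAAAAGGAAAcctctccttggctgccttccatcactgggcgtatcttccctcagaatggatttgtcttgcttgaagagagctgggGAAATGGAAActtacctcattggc
Ifitm3 (ISRE, chr1:205541759-205541838, minus strand): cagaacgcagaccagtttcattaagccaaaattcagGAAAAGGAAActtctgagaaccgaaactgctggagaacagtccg
Ifit3 (ISRE, chr1:241527246-241527325, plus strand): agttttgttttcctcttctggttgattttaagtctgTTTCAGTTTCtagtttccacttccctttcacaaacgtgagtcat
Oas1a (ISRE, chr12:41330386-41330465, plus strand): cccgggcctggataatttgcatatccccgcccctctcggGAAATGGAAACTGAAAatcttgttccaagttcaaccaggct

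**Figure D1:**
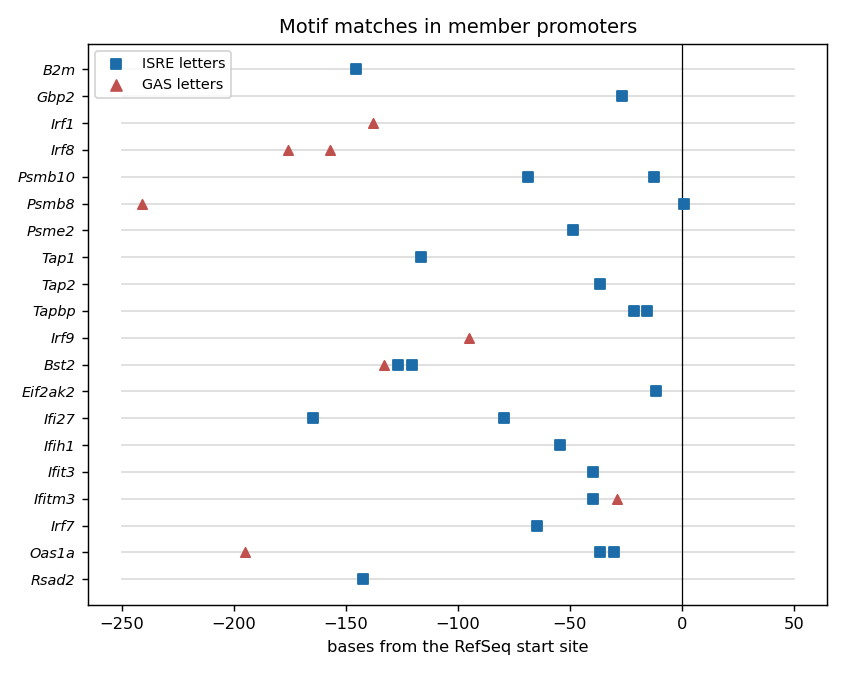
Centres of ISRE matches (squares) and GAS matches (triangles) in the promoter windows of the 20 members that hold either, in bases from the RefSeq start of transcription, which is at 0. The centres of the ISRE squares run from -164.5 (Ifi27) to 1.0 (Psmb8).

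Several members are neighbours in the genome. Tap1 and Psmb9 start 457 bases apart on opposite strands of chromosome 20, and Psmb8 and Tap2 lie on the same stretch, with Psmb8 starting 11.51 kb from Tap1 and Tap2 starting 4.74 kb from Psmb8. Psme1, Psme2 and Irf9 lie close together on chromosome 15, with 13.78 kb between the starts of Psme1 and Psme2 and 13.09 kb between those of Psme2 and Irf9.

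No member passed the test. By limma with Benjamini-Hochberg adjustment over all probe sets, 0 of 33 members and 0% of all genes reached an adjusted p of 0.05, and the smallest adjusted p of any probe set was 0.844. At an unadjusted p under 0.05, 6 of 33 members were lower under the cafeteria diet and 0 were higher, where 3.28% of all genes were lower and 3.42% higher (6.7% in either direction). The 6 were the gamma targets Psmb8, Irf1, Gbp2, Psmb9 and Psme1 (5 of 12) and the type I target Mx1 (1 of 15), with 0 of the 6 receptors and factors. Every cafeteria value lay below every lean value in 3 members, Psmb8, Gbp2 and Mx1, against 0.837% of all genes, and in 0 members was the order the opposite, against 1.33%. Differences below 0 were seen in 24 of 33 members and in 49.2% of all genes. The median difference was -0.19 over the gamma targets, -0.0357 over the type I targets, -0.15 over the receptors and factors and 0.0025 over all genes. The type I median was 0.0305 without lean replicate 4 and -0.0826 without lean replicate 3. With the mean of the leukocyte markers described below as a covariate, 0 of the 6 remained under that p, and the medians of the gamma and the type I targets came to -0.14 and -0.11. Without both lean replicate 3 and cafeteria replicate 3, an alternative chosen after the data were seen, 2 members were lower at that p. The number of all probe sets under that p, in either direction, was 1789. It fell to 976 with the covariate and to 985 without both arrays, so the loss was not particular to the members.

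**Figure D2:**
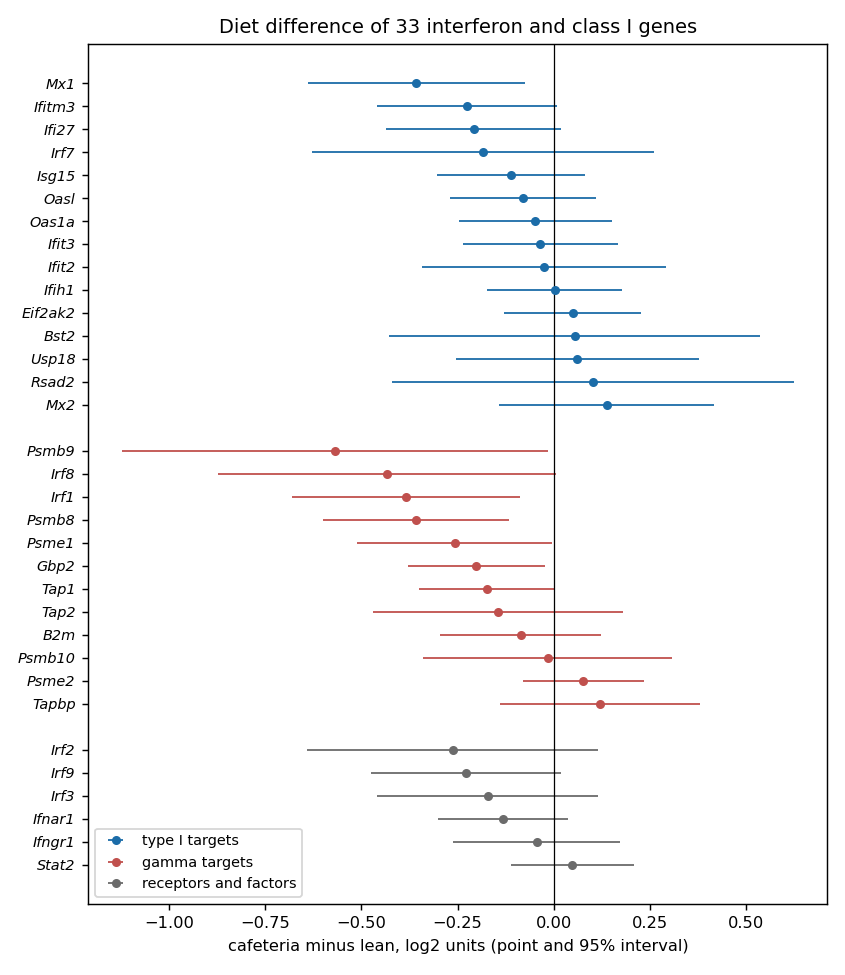
Difference in log2 expression (cafeteria minus lean) of each of the 33 measured members, with its 95% interval from limma, for 4 lean and 5 cafeteria arrays. Of the 12 gamma targets 10 lie below 0, with Psmb9 (-0.57) farthest, whereas the 15 type I targets spread from -0.36 (Mx1) to 0.14 (Mx2).

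Markers of other cell types differed between the arrays. Lean replicate 3 had a mean over 32 measured leukocyte markers that stood 0.82 above the 9-array mean, with the other lean arrays between -0.077 and 0.0498 and the cafeteria arrays between -0.27 and -0.0419. Its level of Ptprc, the pan-leukocyte marker CD45, was 7.33 against 4.13 to 4.99 on the other 8 arrays, and that of the B cell marker Ms4a1 was 6.31 against 3.26 to 4.05. Its mean over 12 lymphocyte markers was 0.97, against -0.24 to 0.0595 on the other arrays. Over 12 macrophage markers its mean was 0.24, against -0.27 to 0.13. Not every marker was raised in it, since Cd52 (3.87) and Cd163 (3.81) lay within the range of the other arrays. Of the 32 markers 27 were lower under the cafeteria diet, 8 of them at an unadjusted p under 0.05, with a median of -0.28. In whole islets, fewer cells of a type and less RNA per cell cannot be told apart. Values without lean replicate 3, or with the leukocyte mean as a covariate, are given for several genes below. The covariate itself differed by -0.37 between the diets, and the part of leukocytes in the differences was not tested. Of 16 acinar markers 15 were above 0, with a median of 0.57 and 2 higher at an unadjusted p under 0.05. Their mean differed by 0.53 and varied from -1.10 in cafeteria replicate 5 to 0.72 in cafeteria replicate 3. Of 12 endothelial markers 10 were below 0, with a median of -0.13 and 2 lower at an unadjusted p under 0.05. Of 9 ductal markers 7 were below 0, with a median of -0.22 and 1 lower at that p, and lean replicate 1 had the highest ductal mean, 0.83. The part of these cell types was not tested.

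Among the gamma targets, the immunoproteasome is described first. It replaces the catalytic subunits of the standard proteasome with Psmb8, Psmb9 and Psmb10, which favour peptides that fit class I molecules. Psmb8 was at 6.21, 6.24, 6.52 and 6.37 in the lean arrays and at 5.92, 6.18, 5.67, 6.07 and 6.03 in the cafeteria arrays. The groups did not overlap, although lean replicate 1 and cafeteria replicate 2 were only just apart, and cafeteria replicate 3 was lowest. The difference was -0.36 (SE 0.11; 95% interval from -0.60 to -0.12), a level 1.28-fold lower, with an unadjusted p of 0.00793 and an adjusted p of 0.844 by limma. It was -0.30 without lean replicate 3 and -0.25 with the leukocyte mean as a covariate (unadjusted p = 0.0873 by limma).

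Psmb9 had the largest difference of all members, and it rested on 2 arrays. Its values were 6.87, 6.82, 7.58 and 6.84 in the lean arrays and 6.95, 6.58, 5.62, 6.53 and 6.60 in the cafeteria arrays. The groups overlapped, since cafeteria replicate 1 lay above 3 of the 4 lean arrays, with lean replicate 3 high and cafeteria replicate 3 low. The difference was -0.57 (SE 0.25; unadjusted p = 0.0449 by limma), but -0.38 without lean replicate 3, -0.36 without cafeteria replicate 3 and -0.18 without both. With the leukocyte mean as a covariate it was -0.27 (unadjusted p = 0.363 by limma). The spread of Psmb9 within the groups was larger than that of 97.4% of all genes.

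Psmb10 differed by -0.0155 (SE 0.15), a value whose sign turned with several alternatives. Cafeteria replicate 3 had its lowest value too, at 5.96, where the other 8 arrays lay between 6.37 and 6.77. The activator of the proteasome is a ring of Psme1 and Psme2, which interferon gamma induces together. Psme1 was at 9.59, 9.75, 9.82 and 9.44 in the lean arrays and at 9.64, 9.43, 9.10, 9.38 and 9.39 in the cafeteria arrays. These groups overlapped through cafeteria replicate 1 and lean replicate 4. Psme1 differed by -0.26 (SE 0.11; unadjusted p = 0.0463 by limma), by -0.20 without lean replicate 3 and by -0.17 with the leukocyte mean as a covariate (unadjusted p = 0.269 by limma). Its partner and neighbour Psme2 differed by 0.0767 (SE 0.07; 95% interval from -0.08 to 0.23), and cafeteria replicate 3, lowest for Psme1, was highest for Psme2.

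Of the subunits of the standard proteasome that these replace, Psmb5 and Psmb7 were measured and Psmb6 was not. Psmb5 differed by -0.0846 (SE 0.08) and Psmb7 by 0.11 (SE 0.08). Cafeteria replicate 3 was lowest for Psmb5 too. Over all 9 arrays Psmb5 ran from 10.17 to 10.49, Psmb8 from 5.67 to 6.52 and Psmb9 from 5.62 to 7.58.

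The peptide loading genes come next. Tap1, a chain of the transporter that carries peptides into the endoplasmic reticulum, was at 6.31, 6.10, 6.35 and 6.24 in the lean arrays and at 6.22, 5.95, 6.11, 6.03 and 6.06 in the cafeteria arrays. The groups overlapped through lean replicate 2, the lowest lean array. The difference was -0.17 (SE 0.08; unadjusted p = 0.0545 by limma), and -0.13 with the leukocyte mean as a covariate. That of Psmb9, which starts 457 bases away, was -0.57. Tap2, the other chain, differed by -0.15 (SE 0.15) and by -0.056 without lean replicate 1, and Tapbp (tapasin), which bridges the transporter and class I molecules, by 0.12 (SE 0.12), by 0.0523 without cafeteria replicate 3 and by 0.21 without cafeteria replicate 2 (unadjusted p = 0.0481 by limma).

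B2m, the light chain of every class I molecule, was at 11.61, 11.83, 11.75 and 11.81 in the lean arrays and at 11.68, 11.72, 11.44, 11.88 and 11.61 in the cafeteria arrays. The groups overlapped over nearly their whole range, and cafeteria replicate 3 was again lowest. B2m differed by -0.0865 (SE 0.09; 95% interval from -0.29 to 0.12), so a decrease beyond 0.29 or a rise beyond 0.12 lay outside its interval. Without cafeteria replicate 3 it differed by -0.0291. Its other probe set differed by -0.13 (SE 0.07).

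Irf1, a transcription factor that interferon gamma induces early and that drives many class I genes, was at 8.07, 8.06, 8.06 and 7.74 in the lean arrays and at 7.87, 7.82, 7.56, 7.51 and 7.23 in the cafeteria arrays. The groups overlapped only through lean replicate 4, which lay below cafeteria replicates 1 and 2. The difference was -0.38 (SE 0.13; 95% interval from -0.68 to -0.09), with an unadjusted p of 0.0158 and an adjusted p of 0.844 by limma. With the leukocyte mean as a covariate it was -0.38 (unadjusted p = 0.0552 by limma), and without lean replicate 3 it was -0.36.

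Irf8, a related factor of macrophages and B cells, was at 5.09, 5.22, 6.15 and 5.06 in the lean arrays and at 4.84, 4.86, 5.03, 5.07 and 4.95 in the cafeteria arrays. Lean replicate 3 stood far above all others, and the remaining values overlapped only through lean replicate 4 and cafeteria replicate 4. The difference of -0.43 (SE 0.20) was -0.18 without lean replicate 3 and 0.0117 with the leukocyte mean as a covariate. Gbp2, a guanylate-binding protein that attacks the vacuoles of microbes, was at 4.76, 4.89, 4.91 and 4.87 in the lean arrays and at 4.44, 4.65, 4.75, 4.71 and 4.74 in the cafeteria arrays. The groups did not overlap but touched at lean replicate 1 and cafeteria replicate 3. The difference was -0.20 (SE 0.08; unadjusted p = 0.0298 by limma), -0.18 without lean replicate 3 and -0.15 with the leukocyte mean as a covariate (unadjusted p = 0.173 by limma). Gbp2 was dimmer than the median probe set on every array, where RMA compresses differences.

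**Figure D3:**
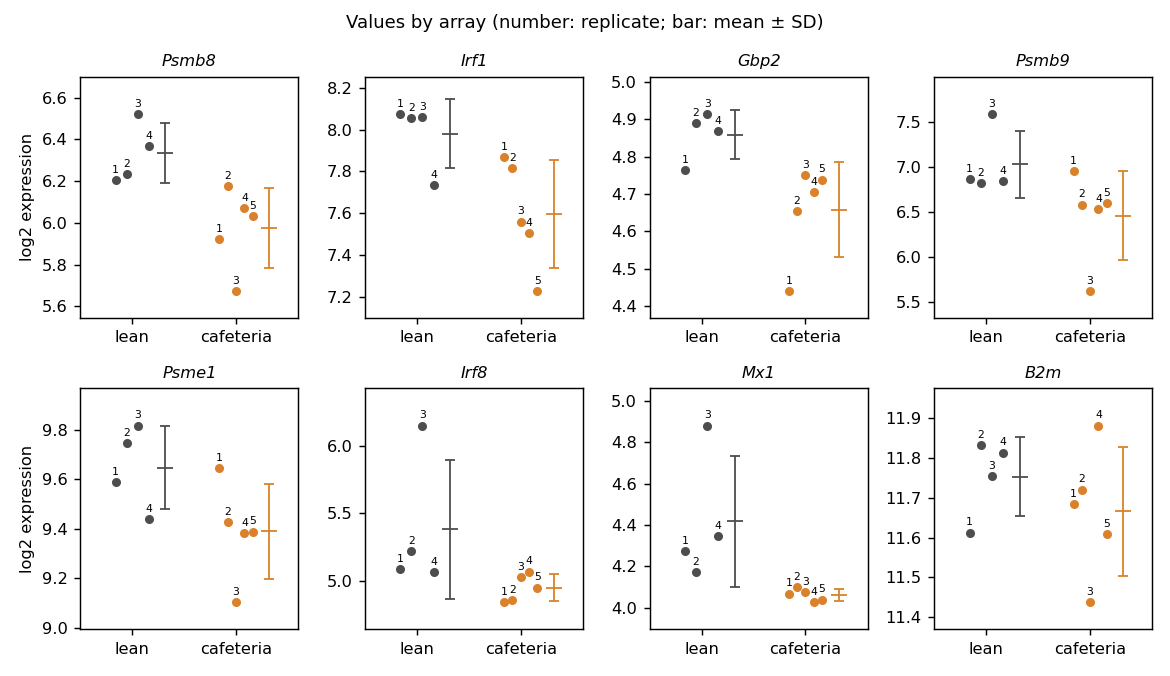
Log2 expression of 8 members on each array, lean in grey and cafeteria in orange, with the replicate number above each point and the mean ± SD beside the group (n = 4 and 5). Psmb8, Gbp2 and Mx1 have no overlap between the groups, and each panel has its own scale. Lean replicate 3 is highest in Psmb8, Gbp2, Psmb9, Psme1, Irf8 and Mx1.

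The targets of type I interferon showed no shared direction. Differences below 0 were seen in 9 of 15 and above 0 in 6, and the count below 0 ran from 5 without lean replicate 4 to 12 without lean replicate 2 or with the leukocyte mean as a covariate. Mx1, a dynamin-like GTPase that traps viruses, was at 4.27, 4.17, 4.88 and 4.35 in the lean arrays and at 4.07, 4.10, 4.07, 4.03 and 4.04 in the cafeteria arrays. Every cafeteria array was below every lean array, with lean replicate 3 high, and all 9 values were below the array medians of 5.28 to 5.32. The difference was -0.36 (SE 0.13; unadjusted p = 0.0176 and adjusted p = 0.844 by limma), -0.20 without lean replicate 3 and -0.11 with the leukocyte mean as a covariate (unadjusted p = 0.289 by limma). Its relative Mx2 differed by 0.14 (SE 0.13), or by -0.0034 with the leukocyte mean as a covariate. The other probe set of Mx2 differed by -0.14 (SE 0.11).

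Ifitm3, a membrane protein that blocks the entry of viruses, was at 8.83, 9.05, 9.09 and 9.05 in the lean arrays and at 8.74, 8.97, 8.47, 8.81 and 8.91 in the cafeteria arrays. Lean replicate 1 lay among the cafeteria arrays, and the difference was -0.23 (SE 0.11; unadjusted p = 0.0582 by limma), and -0.15 without cafeteria replicate 3. Ifi27, a small protein of mitochondria, was at 10.66, 10.73, 10.84 and 10.98 in the lean arrays and at 10.80, 10.68, 10.34, 10.54 and 10.62 in the cafeteria arrays. Cafeteria replicate 3 was lowest for both genes, and Ifi27 differed by -0.21 (SE 0.10; unadjusted p = 0.0679 by limma) with overlapping groups, and by -0.15 without cafeteria replicate 3.

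Isg15, a ubiquitin-like protein that is attached to other proteins, was at 5.30, 5.43, 5.22 and 5.50 in the lean arrays and at 5.38, 5.13, 5.35, 5.13 and 5.25 in the cafeteria arrays. The groups overlapped, and the difference was -0.11 (SE 0.09; 95% interval from -0.30 to 0.08), or -0.21 with the leukocyte mean as a covariate and -0.0657 without lean replicate 4. Usp18, which removes Isg15 from proteins, differed by 0.0606 (SE 0.14). Rsad2 (viperin) differed by 0.10 (SE 0.24), with cafeteria replicate 5 at 6.37 and the other 8 arrays between 5.03 and 5.60, and by -0.13 without that array. Irf7, the factor that amplifies type I interferon, differed by -0.18 (SE 0.20). It was at 6.18 in lean replicate 4 against 5.06 to 5.59 on the others, and differed by 0.0332 without that array and by -0.38 with the leukocyte mean as a covariate. Bst2 (tetherin), which holds budding viruses at the cell surface, also had its highest value in lean replicate 4, 8.09. It differed by 0.0536 (SE 0.22), by 0.31 without that array (unadjusted p = 0.0455 by limma) and by -0.21 with the leukocyte mean as a covariate.

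The other 6 type I targets differed by less than 0.09 in size in their brightest probe set. The RNA sensor Ifih1 (0.0023, SE 0.08) and the synthetase Oas1a (-0.0486, SE 0.09) were dim, as was Ifit3 (-0.0357, SE 0.09), and their intervals reached 0.25 at most to either side. Ifit2 differed by -0.0253 (SE 0.14), or by -0.17 with the leukocyte mean as a covariate. The second probe set of Ifit2 differed by 0.13 (SE 0.09). Oasl differed by -0.0814 (SE 0.09) and the kinase Eif2ak2, which halts translation, by 0.0485 (SE 0.08).

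The receptors and factors stand upstream of both groups. Ifnar1 was at 5.94, 6.15, 6.17 and 6.10 in the lean arrays and at 5.995, 5.82, 5.94, 5.99 and 6.06 in the cafeteria arrays. The groups overlapped, the difference was -0.13 (SE 0.08), and 4 of the 5 further probe sets for Ifnar1 differed in the other direction, so none is given for it. Ifngr1 was at 8.18, 7.82, 8.11 and 7.87 in the lean arrays and at 7.90, 7.78, 7.95, 8.01 and 8.10 in the cafeteria arrays. These values overlapped almost fully, with a difference of -0.0444 (SE 0.10; 95% interval from -0.26 to 0.17).

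Irf9, the DNA-binding partner of Stat2, was at 5.90, 5.72, 6.09 and 6.25 in the lean arrays and at 5.98, 5.66, 5.72, 5.75 and 5.69 in the cafeteria arrays. Cafeteria replicate 1 lay above lean replicates 1 and 2, and the difference was -0.23 (SE 0.11; unadjusted p = 0.0676 by limma), or -0.14 without lean replicate 4. Its partner Stat2 differed by 0.0483 (SE 0.07), and its second probe set had the opposite sign. Irf3, which switches on interferon genes after a sensor fires, was at 9.23, 8.75, 8.71 and 9.02 in the lean arrays and at 8.48, 9.02, 8.74, 8.79 and 8.74 in the cafeteria arrays, a difference of -0.17 (SE 0.13) with overlapping groups, or -0.0714 without lean replicate 1 and -0.29 with the leukocyte mean as a covariate. Irf2, a partial antagonist of Irf1, differed by -0.26 (SE 0.17), by -0.12 without lean replicate 3 and by -0.42 without lean replicate 1 (unadjusted p = 0.0147 by limma). With the leukocyte mean as a covariate Irf2 differed by -0.0589 (unadjusted p = 0.769 by limma).

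The gene groups were compared array by array through the mean of each group's differences from the 9-array mean. The gamma target mean was 0.0828, 0.0382, 0.26 and 0.0649 in the lean arrays and -0.0495, -0.033, -0.23, -0.0353 and -0.10 in the cafeteria arrays. Every lean array was above every cafeteria array in it, with lean replicate 3 highest and cafeteria replicate 3 lowest. The type I target mean was 0.0178, -0.0743, -0.0228 and 0.21 in the lean arrays and -0.0153, -0.0181, -0.0484, -0.11 and 0.0616 in the cafeteria arrays, and these groups overlapped. The mean of the receptors and factors overlapped too, with lean replicate 2 at -0.0298 and cafeteria replicate 1 at -0.0173. So did the mean over all 33 members, with lean replicate 2 at -0.0253 and cafeteria replicate 5 at -0.0183. The arrays with extreme values differed between the groups of genes. Lean replicate 3 held the highest value of 6 of 12 gamma targets and of 2 of 15 type I targets, and lean replicate 4 the highest value of 6 of 15 type I targets and of 0 gamma targets. The difference between the gamma and the type I targets was not tested.

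**Figure D4:**
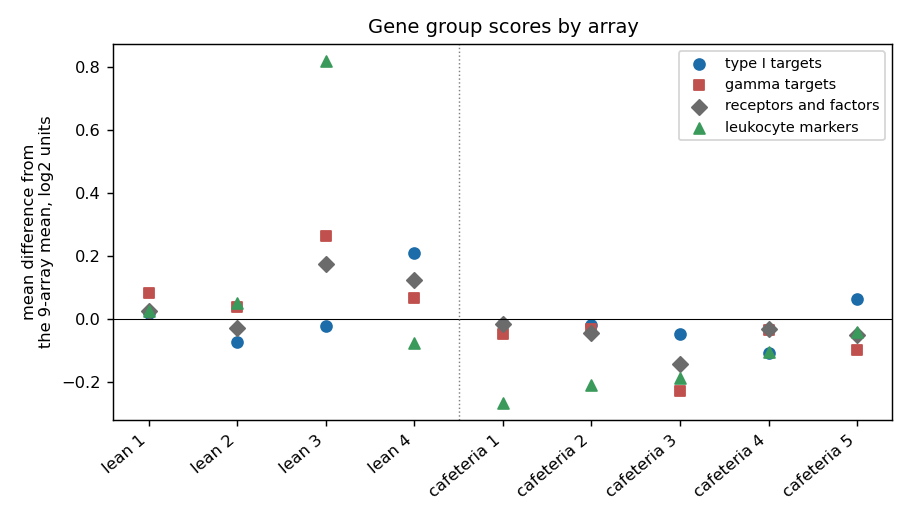
Mean difference from the 9-array mean, in log2 units, of the 15 type I targets, 12 gamma targets, 6 receptors and factors and 32 leukocyte markers on each array. Lean replicate 3 stands at 0.82 for leukocyte markers, gamma targets are above 0 on the 4 lean arrays and below 0 on the 5 cafeteria arrays, and lean replicate 4 is highest for type I targets (0.21).

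Other genes of the pathway, in lists that are no part of the 33 members, were read the same way, and none of them passed the threshold by limma (0 at adjusted p 0.05). Of 13 other receptors, kinases and regulators 10 had a difference below 0 with a median of -0.0284, and 1 was lower at an unadjusted p under 0.05, the receptor kinase Jak1 (-0.22, SE 0.10). The 3 with the smallest p were Jak1, Jak2 (-0.16, SE 0.11) and Ciita (-0.0841, SE 0.09), the master regulator of class II genes. Of 24 other type I targets 16 had a difference below 0 with a median of -0.0505, 3 were lower and 1 higher at an unadjusted p under 0.05. Lgals9 (-0.27, SE 0.11), Ifitm1 (-0.63, SE 0.25), a relative of Ifitm3, and Tor3a (0.17, SE 0.07) had the smallest p.

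Of 14 other gamma targets 8 had a difference below 0 with a median of -0.0326, against 10 of 12 and -0.19 among the members. Icam1 (-0.44, SE 0.14), an adhesion molecule for leukocytes, Cxcl10 (-0.60, SE 0.24), a chemokine for T cells, and Wars1 (0.17, SE 0.08) had the smallest p, 2 of them lower and 1 higher at an unadjusted p under 0.05. Of 9 sensors and adaptors upstream of interferon 4 had a difference below 0, with a median of 0.0332, and the smallest p belonged to Ticam1 (0.31, SE 0.12), an adaptor of Toll-like receptors, Samhd1 (-0.29, SE 0.13) and Traf3 (0.0739, SE 0.08).

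The last list held class I molecules, their chaperones and the peptidases Erap1 and Lnpep. Of its 17 measured genes 5 had a difference below 0, with a median of 0.0506, 1 lower and 1 higher at an unadjusted p under 0.05. RT1-N3 (-0.34, SE 0.14), RT1-M3-1 (0.19, SE 0.08) and RT1-A (-0.29, SE 0.17) had the smallest p. The chaperones Canx and Calr differed by -0.0013 (SE 0.07) and 0.0044 (SE 0.15), and Pdia3, the disulfide isomerase of the loading complex, by 0.11 (SE 0.07). Some rat class I genes are close copies of one another, so that their probe sets may share transcripts.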

How the data were processed

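The authors deposited one table of log2 expression values per probe set, 1 column per array. RMA, R 2.7.0 and affy 2.0.1 are listed in the submitters' processing notes, with no order or role. RMA corrects background, equalises the distributions of the arrays and summarises probes, so a shift shared by most genes would be lost. Column medians were 5.28 to 5.32, arrays correlated at 0.979 to 0.994, and no 2 arrays were identical. Of 31099 rows, 57 were array controls and entered no test. Of the other 31042, 20826 had a single gene in the platform annotation (14217 genes), 436 several and 9780 none listed. Each gene was represented by its brightest probe set, averaged over the 9 arrays.

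Values were fitted as deposited with limma 3.58.1 (R 4.3.3), lmFit and plain eBayes, two-sided, without covariates, adjusted by Benjamini-Hochberg over 31042 probe sets, with a threshold of 0.05. The fit was tested on simulated data. The median SE of a difference was 0.0981, and the number of arrays limits the precision. Members and lists were chosen with earlier results of these data known, so no count over the list is independent support. Every member is described, with values per array for the 12 with the smallest p, the 2 brightest of each role, and B2m, Tap1, Isg15, Ifngr1 and Ifnar1, and the 3 genes of smallest p are named for each other list. Promoters came from RefSeq (GRCr8), and plots and counts from Python 3.11.15, pandas 2.3.3, numpy 2.4.6 and matplotlib 3.10.9. The alternatives were other scalings, a brightness filter, other variance models, array weights, covariates (leukocyte mean; RNA quality, from the 3-prime and 5-prime control probe sets for actin and Gapdh), a mean over probe sets, an adjusted p of 0.10 and leaving samples out.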

Additional observations from a re-analysis of the deposited data

Results flagged for a closer look

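In 2 groups of 4 and 5 arrays, single arrays that stood apart from the rest of their group by Dixon's test were counted for the 33 members and 6 group means. Of the 78 groups examined 10 had such an array, where chance gives about 5%. Lean replicate 3 stood apart in Irf8 (6.15, next 5.22), Psmb9 (7.58, next 6.87) and the leukocyte mean (0.82, next 0.0498). Lean replicate 1 was low in Ifitm3 (8.83, next 9.05) and lean replicate 4 was low in Irf1 (7.74, next 8.06). Cafeteria replicate 5 was high in Rsad2 (6.37, next 5.41) and low in the acinar mean (-1.10, next 0.29). Cafeteria replicate 1 was high in Ifih1 (4.65, next 4.45) and in Irf9 (5.98, next 5.75). Cafeteria replicate 3 was low in the mean of the receptors and factors (-0.14, next -0.053).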

How the results depend on the processing

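No member and no probe set passed an adjusted p of 0.05 in any of the alternatives, nor one of 0.10 with all samples. Of 33 members 20 kept their sign in all alternatives that gave them a value, 16 lower and 4 higher, and 13 did not, namely Ifih1, Ifit2, Ifit3, Mx2, Oas1a, Rsad2, Usp18, Bst2, Irf7, Irf8, Psmb10, Ifngr1 and Ifnar1. The same count over all genes was not made, and the alternatives share most of their arrays. The median of all genes lay between -0.0056 and 0.0115 in all alternatives that gave one. The number of probe sets at an unadjusted p under 0.05, 1789, was 899 among the brighter probe sets alone and 2675 with array weights. It was 976 with the leukocyte mean and 3413 with RNA quality as a covariate. With both lean replicate 3 and cafeteria replicate 3 left out it was 985. It ran from 1235 to 2750 with single samples left out, where lean replicate 1 and cafeteria replicate 1 moved it most upward. Members lower at that p, 6, were 3 among the brighter probe sets, 11 with array weights, 0 with the leukocyte mean as a covariate, 10 with RNA quality and 2 without both replicates 3, and 3 to 9 with single samples left out (3 without lean replicate 3). The gamma targets among them, 5, were 3 among the brighter probe sets, 0 with the leukocyte mean and 1 without both replicates 3, and 2 to 5 with single samples left out (lower by over 1.5 times without lean replicate 3 or cafeteria replicate 2, 3, 4 or 5). The type I targets, 1, were 0 among the brighter probe sets, 3 with array weights, 0 with the leukocyte mean and 3 with RNA quality, and 1 to 3 with single samples left out. The receptors and factors, 0, were 1 with array weights, 2 with RNA quality and 0 to 2 with single samples left out. Their median, -0.15, was -0.0683 with the leukocyte mean and -0.0702 without both replicates 3. The type I median, -0.0357, ran from -0.0826 to 0.0305 with single samples left out and was -0.11 with the leukocyte mean, where the gamma median was -0.14. Type I targets with a difference below 0, 9, were 5 to 12 with single samples left out. The cause of these moves was not tested, except that the filter and the omissions test fewer genes or samples. No paired analysis was possible because the labels give no replicate numbers shared by the diets.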

Other observations

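Several rat class I genes varied widely between arrays of the same diet. The spread of RT1-T24-4 within the groups ranked at percentile 100 among 14217 genes. It was at 3.33, 6.70, 3.45 and 7.64 in the lean arrays and at 3.24, 7.20, 3.89, 3.83 and 4.66 in the cafeteria arrays, so that both diets held arrays near 3 and arrays near 7. RT1-CE10 followed at the percentile 99.8, at 9.31, 7.57, 10.16 and 9.60 in the lean arrays and at 10.29, 9.34, 8.56, 9.27 and 9.09 in the cafeteria arrays. RT1-T24-3 (98.1), RT1-CE12 (97.9), RT1-A3 (97.3) and RT1-CE16 (96.0) also lay near the top, whereas B2m was at the percentile 44.7 and Tap1 at 22.2. Not all did so, since RT1-M3-1 was at the percentile 22.6. Lean replicate 2 had the lowest value of RT1-CE10, RT1-CE12 (9.07), RT1-T24-3 (5.79), RT1-S3 (6.60) and RT1-A3 (4.64). These genes were chosen after their values were seen, and the source of this spread was not tested. It leaves the diet difference of RT1-T24-4 (-0.72, SE 1.02) and RT1-CE10 (0.15, SE 0.48) with wide errors.

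Within the immunoproteasome, cafeteria replicate 3 was lowest for Psmb8, Psmb9, Psmb10 and Psme1 and highest for Psme2, and the mean of these 5 genes in it was -0.47, against -0.0462 to 0.31 on the other arrays. This array was also highest for Tapbp. Its 3-prime minus 5-prime difference was 1.74, where the other arrays ran from 1.21 to 1.80 and only lean replicate 1 was higher. Its mean over 12 islet markers, -0.17, was the lowest of all arrays, with the others between -0.0444 and 0.0969. The part of RNA quality or of islet content was not tested.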
